A study of Homo sapiens with 10 samples.

Results

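The replication-dependent histone genes encode the bulk of the histone protein that packages newly copied DNA. Members were the protein-coding genes whose current symbol is H1-1 to H1-6, or H2AC, H2BC, H3C or H4C followed by a number, with pseudogenes left out. RefSeq lists 69 such genes, and 28 of them had a probe set that names 1 gene, among 22462 genes measured in this way. All 6 H1 genes, 7 of 17 H2A genes and 13 of 18 H2B genes were measured alone. H3C13 was the only one of 13 H3 genes and H4C7 the only one of 15 H4 genes, and the other 41 genes appeared only in probe sets that list several histone genes. The members were 21 of the 55 matching genes on chromosome 6 and 7 of the 13 on chromosome 1.

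The cells were 786-O, an established human clear-cell renal carcinoma line that lacks functional VHL, so every group carries that loss. They were infected with lentivirus and selected with puromycin at 2 ug/ml. The 6 arrays of the ZHX2 table comprise cells with a scrambled hairpin or with hairpin 44 or 45 against ZHX2, and the 4 arrays of the p65 table cells with a control or a p65 shRNA, with 2 arrays in each of the 5 groups. ZHX2 is a zinc-finger and homeobox protein that accumulates in cells without VHL, and p65, encoded by RELA, is a subunit of the transcription factor NF-kappaB. How the control shRNA relates to the scrambled control was not stated, nor were the sequences and clones behind the hairpins, so each table was fitted alone and levels are read only within a table. The labels do not say that arrays of a group came from separate cultures, and p-values then measure only the spread between these arrays, which may be technical. With 2 arrays a group, the number of arrays limits the precision.

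Genes of this group sit in clusters and are transcribed in a nuclear structure named the histone locus body, around the coactivator NPAT. Their mRNAs end in a stem-loop instead of a poly(A) tail. The stem-loop binding protein SLBP holds that stem-loop, and the mRNAs are made in S phase and degraded when DNA synthesis stops. H1 is the linker histone that binds DNA at its entry and exit from the nucleosome, and H2A, H2B, H3 and H4 form the nucleosome core. In a bulk sample, fewer cells in S phase and less histone mRNA in each such cell cannot be told apart. The primer used to copy the RNA was not given in the sources used here, which matters for how transcripts without a poly(A) tail are read.

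The promoters of 5 members are shown because the results turn on them or, for H2BC12, stand apart from them. Each stretch holds the 150 bases before the RefSeq transcription start, read 5′ to 3′ on the gene's strand from the RefSeq table on GRCh38.p14. They lie at chr6:27814872-27815021 on the plus strand for H2BC14, chr6:27867589-27867738 on the minus strand for H1-5, chr6:27893275-27893424 on the plus strand for H2BC17, chr6:26156179-26156328 on the plus strand for H1-4 and chr6:27146859-27147008 on the minus strand for H2BC12. Capitals mark the octamer ATTTGCAT, the TATA box TATAAA, the CCAAT box CCAAT and the H1 box AAACACA, on either strand.
H2BC14: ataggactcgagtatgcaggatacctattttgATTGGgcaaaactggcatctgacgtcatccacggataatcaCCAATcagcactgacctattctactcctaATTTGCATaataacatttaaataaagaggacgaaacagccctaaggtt
H1-5: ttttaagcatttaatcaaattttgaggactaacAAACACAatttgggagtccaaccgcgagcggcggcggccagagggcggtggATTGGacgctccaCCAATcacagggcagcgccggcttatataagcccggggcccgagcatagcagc
H2BC17: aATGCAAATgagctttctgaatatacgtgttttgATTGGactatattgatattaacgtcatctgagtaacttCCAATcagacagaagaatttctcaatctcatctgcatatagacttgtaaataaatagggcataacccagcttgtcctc
H1-4: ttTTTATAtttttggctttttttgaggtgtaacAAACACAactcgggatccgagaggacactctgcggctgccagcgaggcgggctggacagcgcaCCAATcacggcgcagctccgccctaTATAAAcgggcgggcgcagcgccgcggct
H2BC12: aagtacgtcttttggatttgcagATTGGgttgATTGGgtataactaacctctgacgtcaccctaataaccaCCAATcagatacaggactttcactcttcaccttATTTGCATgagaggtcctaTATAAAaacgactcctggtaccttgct

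RefSeq promoters were found for 27 of the 28 members. In the 250 bases before the start, searched on both strands, the octamer was present in 14 of 27 members, including 9 of 13 H2B genes, against 1.63% of 35116 promoters in the table. Counted from the start, it began at -48 in H2BC14 and at -46 in H2BC12, and in H2BC17 it lay at -149 on the other strand. The CCAAT box was present in 26 of 27 members against 32% of all promoters, and the TATA box in 19 against 10.7%. The H1 box, a motif added after the promoters had been seen, was present in all 6 H1 genes, in no other member and in 4.82% of all promoters. The core GGTCCG of the H4 cell-cycle element was present in 2 members against 9.43%. The E2F motifs TTTGGCGC and TTTCCCGC were present in 0 and 1 members against 0.55% and 1.39%, and the kappaB site in 0 members against 5.21%. These are matches of letters, not sites shown to be bound. Among the 27 members, 4 pairs share a divergent promoter, so their matches are not independent. H2AC12, the member without a promoter here, could not be compared.

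Both ZHX2 hairpins lowered their target. As log2 differences from scrambled, ZHX2 gave -1.14 under hairpin 44 (adjusted p = 0.00529) and -1.53 under hairpin 45 (adjusted p = 0.000927). RELA rose by 0.44 on average over the ZHX2 hairpins (adjusted p = 0.0112), and ZHX2 differed by -0.09 under p65 shRNA (adjusted p = 0.861). RELA in the p65 table was 7.64 and 7.67 in the control arrays and 5.04 and 5.28 in the p65 shRNA arrays, a log2 difference of -2.5 that did not pass the test (adjusted p = 0.073). The ZHX2 arrays had medians of 6.15 to 6.22, with the renal epithelial marker PAX8 at 11.74 to 12.35 and the leukocyte marker PTPRC at 3.60 to 3.95. The p65 arrays had medians of 1.87 to 1.89, with PAX8 at 9.04 to 9.15 and PTPRC at 0.72 to 0.95. No detection measure was used, so no gene is called absent. Of the 28 members, 17 lay at or above the 40th percentile of signal in the ZHX2 table and 21 in the p65 table. The copies of a histone family are close in sequence, so a probe set that names 1 gene may still read others, and members' signals are uncertain to that extent.

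On average over both ZHX2 hairpins, H1-5, H2BC14 and H2BC17 were called higher and no member was called lower. The linker histone gene H1-5 rose by 0.61, and the H2B genes H2BC14 and H2BC17 by 0.37 and 0.36, on the log2 scale. These 3 of 28 members make 10.7% (limma, adjusted p under 0.05 over all genes), near the share of all genes, where 11.9% were called higher and 6.40% lower. With 0 of 28 members called lower, 2, H1-1 and H2BC3, lay lower at an unadjusted p under 0.05, against 13.1% of all genes. The median log2 difference of the members was 0.02, beside -0.00 over all genes, and 16 members lay above 0 and 12 below. Without 1 array it ran from -0.01, without hairpin 44 replicate 2, to 0.04. Single values ran from -0.31 to 0.61.

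H1-5 gave 8.90 and 8.58 in the scrambled arrays, 9.22 and 9.42 under hairpin 44 and 9.57 and 9.20 under hairpin 45. All 4 hairpin arrays lay above both scrambled arrays. The mean log2 difference was 0.61 ± 0.14 (SE; adjusted p = 0.0353). Against scrambled, hairpin 45 alone passed the test for H1-5 (0.65, adjusted p = 0.0437), while hairpin 44 gave 0.58 (adjusted p = 0.093). The hairpin 45 call was lost without any single array, with adjusted p from 0.0532 to 0.175.

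H2BC14, an H2B gene of the chromosome 6 cluster, read 12.17 and 11.91 in the scrambled arrays, 12.53 and 12.53 under hairpin 44 and 12.36 and 12.21 under hairpin 45. The groups did not overlap, and the hairpin 44 arrays were the highest. The mean difference of 0.37 ± 0.10 (SE) was at the threshold, with an adjusted p of 0.049, and neither hairpin passed alone (0.49 for hairpin 44, adjusted p = 0.0553, and 0.25 for hairpin 45, adjusted p = 0.184). Under hairpin 45 the value was 0.12 without scrambled replicate 2 and 0.38 without scrambled replicate 1.

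H2BC17, another H2B gene of the chromosome 6 cluster, gave 7.76 and 7.62 in the scrambled arrays, 8.04 and 8.08 under hairpin 44 and 8.07 and 8.0 under hairpin 45. The 4 hairpin arrays lay close together and above both scrambled arrays. The mean difference was 0.36 ± 0.07 (SE; adjusted p = 0.022), with 0.37 for hairpin 44 (adjusted p = 0.0542) and 0.35 for hairpin 45 (adjusted p = 0.0348).

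These calls rest on few arrays. The H1-5 call was lost under quantile normalization (adjusted p = 0.0521) and without any single array except hairpin 45 replicate 2, with adjusted p up to 0.177 without scrambled replicate 2. H2BC14 was lost under quantile normalization (adjusted p = 0.139), under robust moderation (adjusted p = 0.0519) and without any array but scrambled replicate 1, and its mean difference was 0.24 without scrambled replicate 2. H2BC17 was kept under quantile normalization (adjusted p = 0.0231) but lost without any array but scrambled replicate 1, with adjusted p between 0.0624 and 0.0925. Its call under hairpin 45 alone was likewise lost without any array but scrambled replicate 1 (adjusted p = 0.0375 without it). Without scrambled replicate 2, H1-1 gave -0.50 and H4C7 -0.58. Both were dim in this table, at signal percentiles 19.2 and 1.36, and H4C7 read 2.71 and 2.13 in the scrambled arrays. Without either hairpin 44 array or hairpin 45 replicate 1, 0 members were called.

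**Figure D1:**
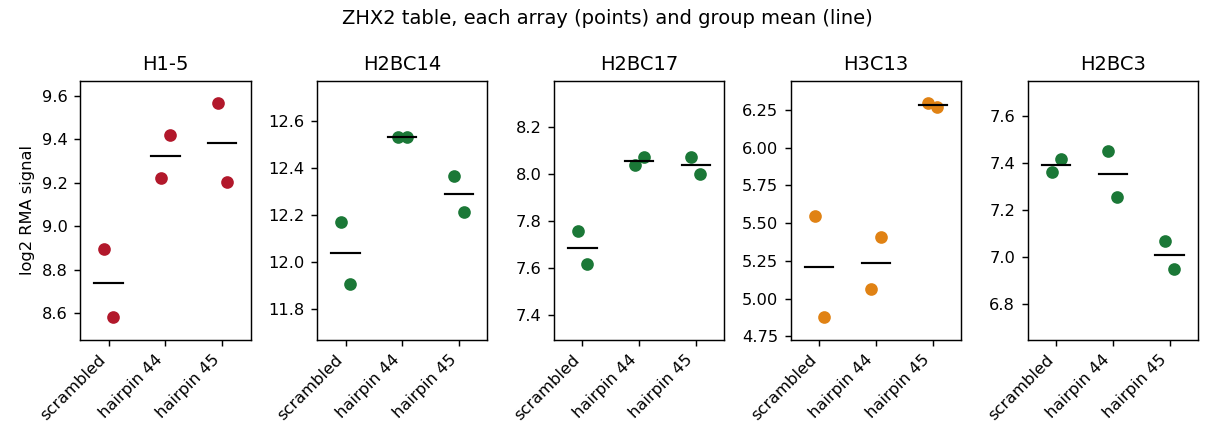
Log2 RMA signal of H1-5, H2BC14, H2BC17, H3C13 and H2BC3 on each of the 6 arrays of the ZHX2 table, with points for arrays, a line for the group mean and a scale of its own for each gene that does not start at 0. For H1-5, H2BC14 and H2BC17 the 4 hairpin arrays lie above both scrambled arrays, while for H3C13 the 2 hairpin 45 arrays are the highest of the 6 and for H2BC3 the lowest.

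H2BC12 had non-overlapping groups without passing the test, with 10.16 and 10.05 in the scrambled arrays, 10.44 and 10.36 under hairpin 44 and 10.25 and 10.30 under hairpin 45. The mean log2 difference was 0.23 ± 0.07 (SE; adjusted p = 0.0744). With H1-5, H2BC14 and H2BC17, it made 4 of 28 members whose hairpin arrays all lay above both scrambled arrays, against 21.9% of all genes. In the other direction 2 of 28 members, H1-1 and H2AC21, lay wholly lower, against 16.4% of all genes. H1-1 had a mean difference of -0.31 (adjusted p = 0.138) and H2AC21 one of -0.10 (adjusted p = 0.359), and both were named after their values were seen. The other 22 members overlapped between scrambled and hairpin arrays, each read by its brightest probe set. For H2BC18, a dimmer probe set lay wholly lower under the hairpins, with a mean difference of -0.49 (limma over all probe sets, adjusted p = 0.0742). The brightest H2BC18 probe set gave -0.13 and the remaining one -0.09.

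By family, the H1 genes ran from -0.31 for H1-1 to 0.61 for H1-5, with H1-2 at 0.21 (adjusted p = 0.165) and H1-4 at 0.02 (adjusted p = 0.881). H1-4, one of the main somatic linker histones, read 13.27 and 13.25 in the scrambled arrays and 13.24 to 13.31 over the hairpin arrays. That spread covered both groups. The 7 H2A genes had a median of 0.01 and a range from -0.10 to 0.20, with 0 called and 0 at an unadjusted p under 0.05. The 13 H2B genes had a median of 0.04, with 2 called higher, and ran from -0.21 for H2BC3 to 0.37 for H2BC14. H4C7 differed by -0.29 (adjusted p = 0.279).

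With limma's intensity trend, which lets the expected spread follow the signal, 6 members were called higher and 0 lower in the mean comparison, against 17.3% and 8.88% of all genes. The 3 added were H1-2 (0.21, adjusted p = 0.0222), H2BC12 (0.23, adjusted p = 0.00382) and H3C13 (0.55, adjusted p = 0.0446). Without the trend, the mean difference of H3C13 was 0.21 without scrambled replicate 2 and 0.88 without scrambled replicate 1.

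Against scrambled, 4 of 28 members changed under hairpin 45 and 0 of 28 passed the test under hairpin 44. Under hairpin 45, H3C13, H1-5 and H2BC17 were called higher, against 13.0% of all genes, and H2BC3 lower, against 7.09%. Under hairpin 44, 4.80% of all genes were called higher and 2.84% lower, and 5 members, H2BC17, H2BC14, H2BC12, H1-5 and H1-2, had an unadjusted p under 0.05, all higher, where 24.5% of all genes passed that bound. With the intensity trend these 5 were called higher under hairpin 44 and 0 lower, against 11.7% and 5.82% of all genes. Under hairpin 45 the trend gave 5 members higher, the earlier 3 with H2BC12 and H2BC14, and 2 lower, H2BC3 and H2AC21, against 18.3% and 9.58% of all genes. Without the trend, H1-2 differed by 0.30 under hairpin 44 (adjusted p = 0.133) and H2BC12 by 0.30 under the same hairpin (adjusted p = 0.0843). Both hairpins were set against the same scrambled arrays, so the 2 comparisons are not independent. The members' medians were 0.01 under hairpin 44 and 0.03 under hairpin 45.

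H3C13, the only H3 gene measured alone, read 5.54 and 4.88 in the scrambled arrays, 5.07 and 5.41 under hairpin 44 and 6.29 and 6.27 under hairpin 45. Only the 2 hairpin 45 arrays stood clear of the others in this table. H3C13 lay at signal percentile 37.99 here, below the 40th percentile, so the filter on signal left it out. Its scrambled and hairpin 44 signals lay below the array medians. Against scrambled, hairpin 45 differed by 1.07 ± 0.23 (SE; adjusted p = 0.025) and hairpin 44 by 0.02 (adjusted p = 0.964). The hairpin 45 value was called under quantile normalization (adjusted p = 0.0303) and lost without scrambled replicate 2 (adjusted p = 0.0569) or either hairpin 45 array (adjusted p = 0.105). The difference between the hairpins, 1.04 ± 0.23 (SE), did not pass the test (adjusted p = 0.151), and passed it with the intensity trend (adjusted p = 0.0127).

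H2BC3, an H2B gene of the chromosome 6 cluster, read 7.36 and 7.41 in the scrambled arrays, 7.45 and 7.25 under hairpin 44 and 7.07 and 6.95 under hairpin 45. The hairpin 45 arrays were the lowest. The difference from scrambled was -0.38 ± 0.10 (SE; adjusted p = 0.0431) under hairpin 45 and -0.04 under hairpin 44 (adjusted p = 0.865). The hairpin 45 call was lost under median centring (adjusted p = 0.0696), under quantile normalization (adjusted p = 0.0509) and without any single array.

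Between the hairpins, 0 of 28 members were called by limma, against 0.396% of all genes, and 2 members, H3C13 and H2BC3, had an unadjusted p under 0.05, against 15.1% of all genes. H2BC3 differed by -0.34 (hairpin 45 minus hairpin 44, adjusted p = 0.213), H2AC14 by 0.64 (adjusted p = 0.394), H1-3 by -0.35 (adjusted p = 0.372) and H2BC14 by -0.24 (adjusted p = 0.38). The H2AC14 value was 0.20 without hairpin 44 replicate 1, 1.08 without hairpin 44 replicate 2 and 0.38 without hairpin 45 replicate 1. H2AC14 and H1-3 were dim in this table, at signal percentiles 9.2 and 8.8. With the intensity trend H3C13 alone was called, against 4.10% of all genes called higher.

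**Figure D2:**
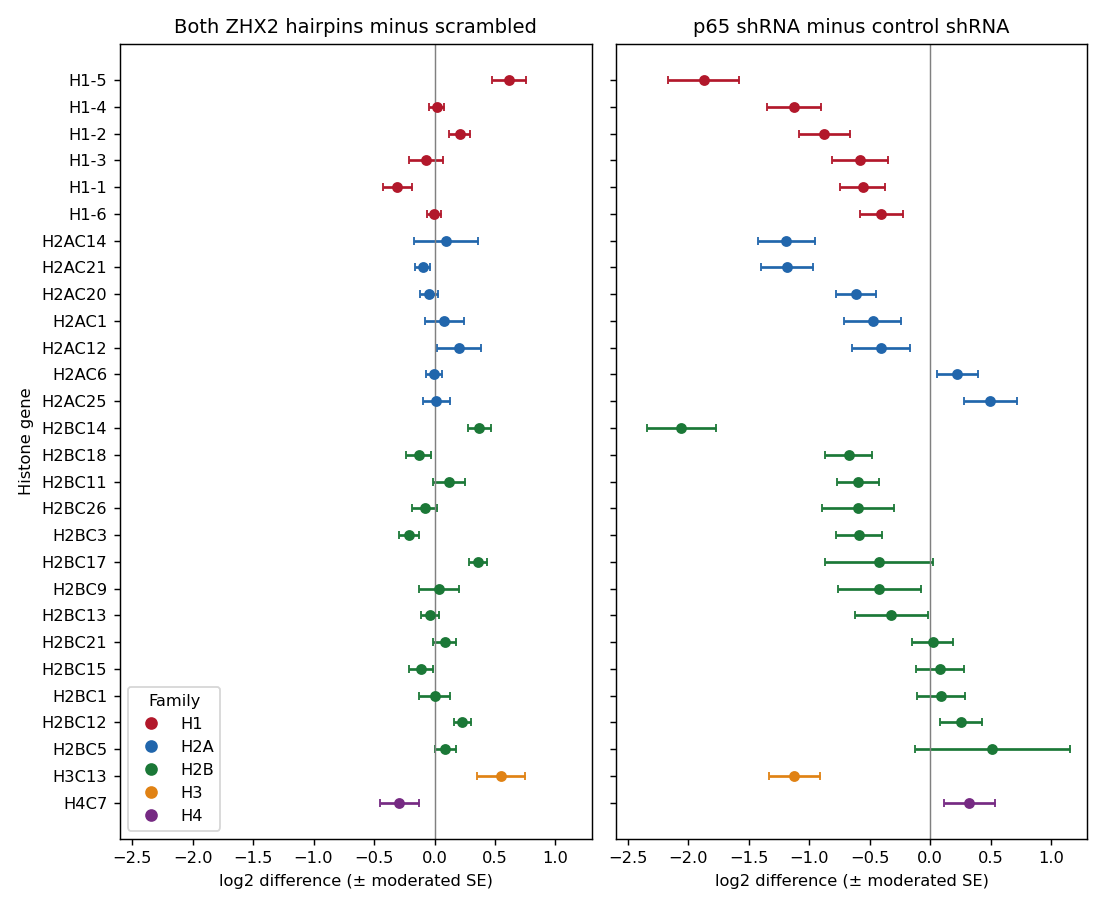
Log2 difference of each of the 28 members, with bars for the moderated SE and colours for the families, for both ZHX2 hairpins minus scrambled on the left and p65 shRNA minus control shRNA on the right. On the left the values run from -0.31 to 0.61 around 0. On the right they run from -2.06 to 0.51, and the 6 H1 genes and H3C13 lie below 0.

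Under p65 shRNA, 20 of 28 members lay lower than under control shRNA and 8 higher, with a median log2 difference of -0.52 beside 0.01 over all genes. None passed limma's test at adjusted p under 0.05: 0 of 28 members and 0% of all genes were called. At an unadjusted p under 0.05 there were 13 members, all lower, against 7.94% of all genes lower. With the intensity trend 7 members were called lower and 0 higher, against 2.49% and 1.37% of all genes. These were the linker histone genes H1-2, H1-4 and H1-5, the H2A genes H2AC20 and H2AC21, the H2B gene H2BC14 and H3C13. Both p65 arrays lay below both control arrays in 17 members, against 22.7% of all genes, and above both in 4, H2AC6, H2AC25, H2BC12 and H4C7, against 23.3%. The 7 members whose groups overlapped were all H2B genes. Besides the 7 called with the trend, those at an unadjusted p under 0.05 were H2AC14, H2BC18, H2BC11, H2BC3, H1-3 and H1-1, from -1.19 for H2AC14 to -0.56 for H1-1. Members outside the naming rule are given here after their values were seen.

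H2BC14 had the largest difference of the members, with 7.84 and 8.49 in the control arrays and 6.32 and 5.90 in the p65 arrays. The gap between the groups was larger than the spread inside each. The log2 difference was -2.06 ± 0.29 (SE; adjusted p = 0.0911), and the adjusted p with the intensity trend was 0.00434.

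H1-5 read 7.94 and 8.68 in the control arrays and 6.28 and 6.60 in the p65 arrays. Both p65 arrays were lower, and the control arrays differed from each other more than the p65 arrays did. The log2 difference was -1.87 ± 0.29 (SE; adjusted p = 0.1, and 0.00603 with the intensity trend).

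Among the H2A genes, H2AC21 read 9.51 and 9.92 in the control arrays and 8.41 and 8.65 in the p65 arrays, without overlap, for a difference of -1.18 ± 0.22 (SE; adjusted p = 0.121, and 0.00651 with the trend). H2AC20 read 11.46 and 11.57 against 10.91 and 10.89. The arrays of each group agreed closely for it, and the difference was -0.62 ± 0.17 (SE; adjusted p = 0.215, and 0.0076 with the trend). H2AC14, which shares a divergent promoter with H2BC14, gave -1.19, from 2.34 and 2.30 to 0.85 and 1.42 (adjusted p = 0.136, and 0.0681 with the trend). Its p65 arrays lay below the array medians. In the other divergent pairs the partners had opposite signs. H2AC25 gave 0.50 and H2BC26 -0.60, H2BC21 0.02 and H2AC20 -0.62, and H2AC1 -0.47 and H2BC1 0.09.

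H1-4 read 10.28 and 10.75 in the control arrays and 9.30 and 9.48 in the p65 arrays, with a difference of -1.13 ± 0.22 (SE; adjusted p = 0.134, and 0.00806 with the trend). The p65 arrays lay below both controls. All 6 H1 genes were placed this way, with a median of -0.73 and a range from -1.87 for H1-5 to -0.40 for H1-6, the testis form of H1. H1-6, at 0.43 to 0.97, and H1-1, at 0.92 to 1.62, lay below the array medians on all 4 arrays. H1-3 read 1.80 and 1.90 in the control arrays, near those medians, and 1.53 and 1.00 in the p65 arrays. H1-2 gave -0.88 (adjusted p = 0.182, and 0.025 with the trend).

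H3C13 read 6.12 and 6.51 in the control arrays and 5.30 and 5.08 in the p65 arrays, again without overlap. Its difference was -1.12 ± 0.21 (SE; adjusted p = 0.122, and 0.0202 with the trend). H4C7 lay higher, by 0.32, at signals of 0.31 and 0.48 in the control arrays and 0.92 and 0.52 in the p65 arrays, all below the array medians (adjusted p = 0.55).

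The H2B genes spread widely, from -2.06 for H2BC14 to 0.51 for H2BC5, with a median of -0.42. H2BC17, which rose under the ZHX2 hairpins, read 4.38 and 5.07 in the control arrays and 4.90 and 3.71 in the p65 arrays. Its groups overlapped, and the difference was -0.42 ± 0.45 (SE; adjusted p = 0.725). H2BC5 also overlapped, at 3.88 and 5.78 against 5.70 and 4.99. H2BC12 lay higher in both p65 arrays, with 8.41 and 8.22 against 7.99 and 8.12, a difference of 0.26 ± 0.18 (SE; adjusted p = 0.578). The H2A gene H2AC6 did the same, with 6.30 and 6.18 against 6.07 and 5.97, a difference of 0.22 ± 0.17 (SE; adjusted p = 0.614).

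**Figure D3:**
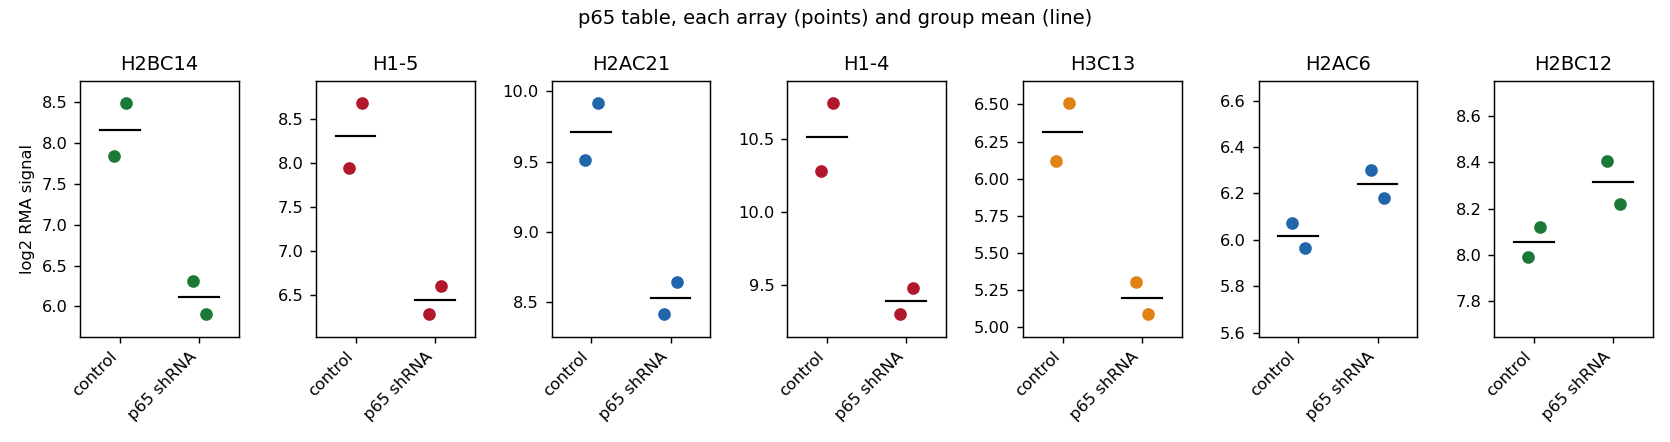
Log2 RMA signal of H2BC14, H1-5, H2AC21, H1-4, H3C13, H2AC6 and H2BC12 on each of the 4 arrays of the p65 table, with points for arrays, a line for the group mean and a scale of its own for each gene that does not start at 0. In the first 5 genes both p65 arrays lie below both control arrays, and in H2AC6 and H2BC12 they lie above.

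H2BC12 is 1 of 4 members whose RefSeq gene span exceeds 1 kb, at 8566 bp, with H2BC5 at 13229 bp, H2BC18 at 29682 bp and H2BC21 at 2224 bp. Several of these are known to give polyadenylated transcripts besides the short stem-loop form. Under p65 shRNA the 4 had a median of 0.14, from -0.67 for H2BC18 to 0.51 for H2BC5, and 0 were called with the trend. The other 24 members had a median of -0.57, and 16 of them lay wholly lower. This grouping was made after the values were seen and was not tested. H2BC18 was read by 3 probe sets, the brightest of which differed between the tables, and in the p65 table the other 2 gave -0.13 and -0.33. The 7 members on chromosome 1 had a median of -0.62 and the 21 on chromosome 6 one of -0.42.

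The control arrays of the p65 table were not alike in these genes. Replicate 2 of the control minus replicate 1 had a median of 0.17 over the members, with 18 of 28 above 0, beside 0.41 over 29 genes of G1/S and DNA replication, with 28 of 29 above 0, and 0.01 over all genes. The p65 arrays differed by -0.13 over the members and 0.16 over those 29 genes. Between the scrambled arrays of the ZHX2 table the same differences were -0.11 and -0.10, beside -0.03 over all genes. The part of these array differences in the results was not tested. The members' median under p65 shRNA lay between -0.67 and -0.45 when any 1 of the 4 arrays was left out.

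Set side by side, the mean ZHX2 difference and the p65 difference come from separate control arrays. Of the 28 members, 11 were positive for ZHX2 and negative for p65, 9 negative in both, 5 positive in both and 3 negative for ZHX2 and positive for p65. Over the 28 members Pearson's r was -0.45 and Spearman's rho -0.22. These are descriptions across genes that share arrays and, in part, sequence. H1-5 and H2BC14, called higher under the ZHX2 hairpins, had the lowest differences under p65 shRNA.

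The machinery around these genes was read from 5 lists. Beside their counts, 11.9% of all genes were called higher and 6.40% lower for the mean of both hairpins. With the intensity trend these shares were 17.3% and 8.88%, and for p65 shRNA 1.37% higher and 2.49% lower. Of 11 genes of the histone locus body and histone gene transcription, 6 rose under the ZHX2 hairpins and 0 fell (mean of both, median 0.29), and 3 were called with quantile normalization. Without any 1 array other than scrambled replicate 1, 2 or 3 were called. The cyclin CCNE2, which with CDK2 phosphorylates NPAT, rose by 0.80 (adjusted p = 0.00495), and CASP8AP2, a component of the body, by 0.39 (adjusted p = 0.0186). NPAT itself differed by 0.15 (adjusted p = 0.22). With p65 shRNA this list's median was -0.03 and 2 genes were called lower with the intensity trend, CCNA2 at -1.77 (adjusted p = 0.0031 with it) and CCNE2 at -1.05 (adjusted p = 0.0357 with it). NPAT differed by 0.01 there (adjusted p = 0.99).

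Of 20 genes of histone mRNA processing and decay, 10 rose under the ZHX2 hairpins and 0 fell (median 0.27), with 2 to 4 called without any 1 array other than scrambled replicate 1. SLBP read 10.49 and 10.44 in the scrambled arrays, 10.95 and 10.87 under hairpin 44 and 11.03 and 11.02 under hairpin 45. All hairpin arrays were higher, and SLBP rose by 0.50 ± 0.06 (SE; adjusted p = 0.00625). LSM1, an RNA decay factor, rose by 0.49 (adjusted p = 0.0116), and ZNF473, which bridges SLBP and the U7 particle, by 0.45 (adjusted p = 0.0121). After p65 shRNA the median was -0.09 and SLBP alone was called with the trend. It read 8.33 and 8.67 in the control arrays and 7.86 and 7.57 in the p65 arrays, a difference of -0.78 (adjusted p = 0.217, and 0.0357 with the trend). CPSF2 gave -0.75 (adjusted p = 0.243) and NCBP2 0.47 (adjusted p = 0.328).

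Among 22 histone chaperone and acetylation genes, 11 rose under the ZHX2 hairpins and 0 fell (median 0.32). Without any 1 array other than scrambled replicate 1, 4 to 7 were called, and with the intensity trend 15 higher and 2 lower. They included SUPT16H and SSRP1, the subunits of the chaperone FACT, at 0.61 (adjusted p = 0.00352) and 0.47 (adjusted p = 0.00877), and ASF1B, which hands over H3 and H4, at 0.54 (adjusted p = 0.00553). Under p65 shRNA the median was -0.38 and 7 were called lower with the trend. CHAF1A and CHAF1B, subunits of the assembly factor CAF-1, gave -1.44 and -1.60, and HJURP, the chaperone of the centromeric H3, gave -1.53.

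The list of replication-independent variants holds histone genes outside the members' rule, and how far each follows S phase was not tested. Of 12 measured, H2AZ1 alone rose under the ZHX2 hairpins, by 0.42 (adjusted p = 0.0116), and the list's median was 0.07. This 1 gene makes 8.33% of the list, beside 11.9% of all genes called higher. Without scrambled replicate 2, 0 were called, without scrambled replicate 1 or hairpin 45 replicate 2, 2, and with the trend 3. H2AX differed by 0.29 (adjusted p = 0.0882), and by 0.16 without scrambled replicate 2 and 0.42, called, without scrambled replicate 1, and MACROH2A1 by 0.21 (adjusted p = 0.0817). Under p65 shRNA the median was -0.15 and H2AX alone was called with the trend, at -1.25 (adjusted p = 0.00595 with it). H2AZ1 gave -0.77 (adjusted p = 0.0613 with the trend) and H2BW1 0.30 (adjusted p = 0.497 with it).

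All 29 measured genes of the G1/S and DNA replication list rose under the ZHX2 hairpins, with a median of 0.58 and values from 0.33 to 0.94. MCM10 rose by 0.94 (adjusted p = 0.00202), RFC3 by 0.80 (adjusted p = 0.00285) and E2F1 by 0.75 (adjusted p = 0.00221). Some genes of this list stand in earlier lists too, among them CCNE1 and E2F1 in that of the locus body. The lists' counts are therefore not independent. Without scrambled replicate 2, 17 of the 29 were called. In the p65 comparison the median was -1.27, 27 of 29 lay wholly lower, and 23 were called lower with the trend, with TYMS at -1.83, MCM5 at -1.77 and CDC45 at -1.77. E2F1 gave -1.27 (adjusted p = 0.0859 with the trend), and -0.83 without p65 replicate 1. Beside these, the members' medians were 0.02 and -0.52.

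**Figure D4:**
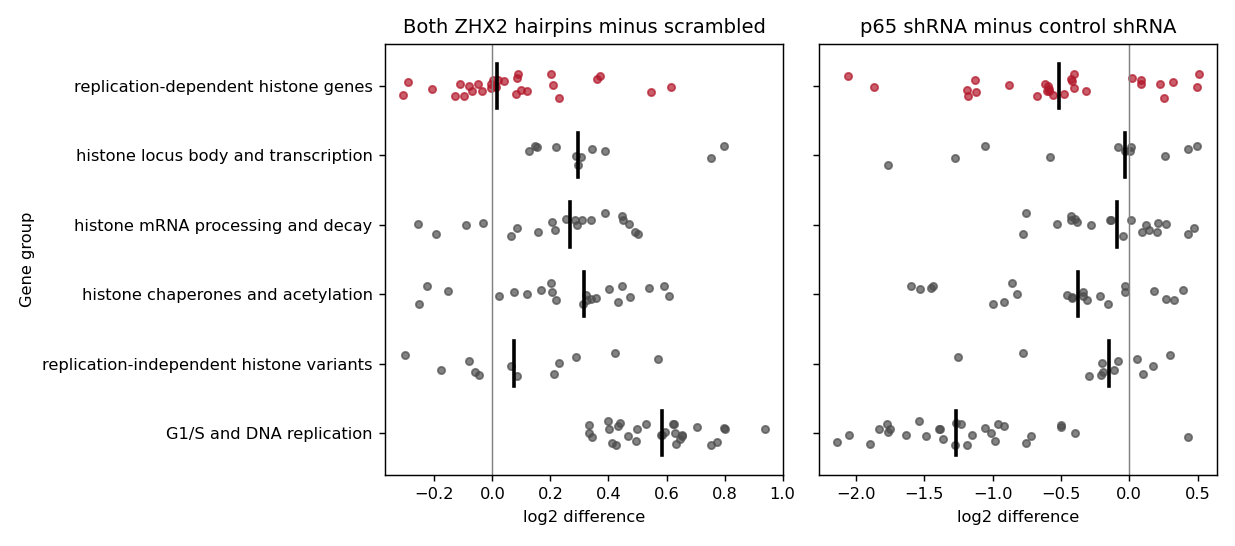
Log2 differences of the 28 members (red) and of the genes of the 5 lists (grey), 1 point a gene, with a black bar at each median, for both ZHX2 hairpins minus scrambled on the left and p65 shRNA minus control shRNA on the right. The members' bar stands at 0.02 on the left and -0.52 on the right, and that of the G1/S and DNA replication genes at 0.58 and -1.27.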

How the data were processed

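Total RNA of 10 arrays, 6 for ZHX2 and 4 for p65, was measured. The deposited values are log2 signals made with RMA, per the submitters' processing notes. What software, annotation and build the authors used was not given in the sources used here. Of 53617 probe sets, 24471 named 1 gene in the platform annotations, joined and updated through Entrez IDs to RefSeq on GRCh38.p14. 1842 listed several genes, 27196 none, and 108 differed between annotations. The members were named only by the p65 platform's annotation. Each gene was read by its brightest probe set. Each table was fitted alone in limma 3.58.1 (R 4.3.3) on group means, with 3 and 2 residual degrees of freedom and Benjamini-Hochberg adjustment over 22462 genes. The fit was tested on simulated data. The labels do not say whether replicate numbers pair samples. Same-number correlations over all genes ran from -0.03 to 0.05, which cannot settle how the arrays were prepared.

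The members and gene lists were chosen with earlier results of these data known. Named in full were members called in any of 5 comparisons, the 5 smallest p-values of each, SLBP, NPAT, ZHX2, RELA and the 3 smallest p-values of each list. Others that are named were picked after their values were seen. Alternatives were robust moderation, an intensity trend, quantile normalization, median centring, averaging a gene's probe sets, a filter at the 40th percentile of signal, the replicate block, only the groups compared, and leaving out each array. Shared probe sets were fitted in a table of all probe sets, added after seeing the data.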

Additional observations from a re-analysis of the deposited data

Results flagged for a closer look

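Probe sets that list several histone genes stand outside the comparisons of single genes. There were 40 of them, covering the other 41 histone genes, and they were fitted with all 53617 probe sets, of which 2222 were called higher and 1300 lower for the mean of both ZHX2 hairpins. Of the 40, 5 were called higher and are given here because they carry a signal above the scrambled arrays. Probe set 17016506, which lists 14 H4 genes, rose by 0.84, from 9.0 and 8.75 in the scrambled arrays to between 9.58 and 9.85 over the hairpin arrays. Another listing 14 H4 genes, 17005586, rose by 0.55. The H3 probe sets 17016403 and 17005532, each listing 10 genes, rose by 0.83 and 0.81. The H2A probe set 17005787, listing 6 genes, rose by 0.83. In the other direction 1 of the 40 was called lower. This was 17016406, an H4 probe set, which fell by 0.48 (limma over all probe sets, adjusted p = 0.0442). The median of the 40, which hold 38 distinct signals, was 0.08. With hairpin 45 set alone against scrambled, the same 5 were called higher, where 2523 of all probe sets were. With hairpin 44 set alone, 0 of the 40 were called, where 280 of all probe sets were called higher. The 5 rose by 0.39 to 0.74 under hairpin 44 and by 0.72 to 1.06 under hairpin 45. Which of the listed genes gave each signal was not tested.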

How the results depend on the processing

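Of the 28 members, the 3 called for the mean of both hairpins became 6 with the intensity trend, 1 with quantile normalization and 0 to 3 when 1 array was left out. Without scrambled replicate 2 the dim members H1-1 and H4C7 gave -0.50 and -0.58. For hairpin 44, 0 became 5 with the trend and 1 with quantile normalization. The filter at the 40th percentile left 17 members and 16443 genes. With it, 4 of these 17 members were called higher under hairpin 44, beside 1987 of the 16443 genes. For hairpin 45, 4 became 7 with the trend, 2 with quantile normalization, 1 with the replicate block, 1 with only the groups compared and 0 to 2 without 1 array. Between hairpins 0 became 1, and for p65 0 became 7, with the trend alone. Whether the replicate numbers pair samples was not stated, and the replicate block left the 3 mean calls at 3. Over all genes the count for the mean, 4103, became 3332 without scrambled replicate 1, 1786 without scrambled replicate 2, 2257 and 2140 without hairpin 44 replicate 1 or 2, and 2172 and 2067 without hairpin 45 replicate 1 or 2. For hairpin 44, 1718 became 3943 with the trend, 3064 with the filter, 816 with the replicate block, 578 with only the groups compared and 3 to 595 without 1 array. For hairpin 45, 4512 became 1132 to 3967 without 1 array. Between hairpins, 89 became 1465 with the trend, 400 with the filter, 9 with the replicate block, 3 with only the groups compared and 0 to 4 without 1 array. For p65, 0 became 868 with the trend, and the fits that left 1 array alone in its group assume that it varies like the other group. The higher share of the mean calls was 65%, and 73.0% with median centring and 53.2% with quantile normalization. The lists' calls for the mean, 6, 10, 11, 1 and 29 in the order of the report, ran from 2 to 5, 2 to 8, 4 to 9, 0 to 2 and 17 to 28 without 1 array, and the variants' 1 became 4 with the filter. The members' median for the mean, 0.02, was -0.01 without hairpin 44 replicate 2. Small values reversed for p65 without 1 array: NPAT lay between -0.25 and 0.27, and ZHX2 between -0.19 and 0.010. Single genes were compared by direction and side of the threshold, counts by a ratio up to 1.5 and medians by array spread. So compared, 801 of the other values stayed the same, 57 moved, 55 were weaker and 37 stronger. The cause was not tested. Signal over background was not measured, and members below the 40th percentile carry little weight.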

Other observations

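Among the same 40 shared probe sets, 2 pairs hold the same values on every array, which leaves 38 distinct signals. Under p65 shRNA these 38 had a median log2 difference of -0.88, and 32 of them (84.2%) lay below 0, as did 25973 of all 53617 probe sets (48.4%). Limma called 0 of them over all probe sets, and 27 (71.1%) had an unadjusted p under 0.05 in either direction, beside 5196 of all probe sets (9.69%). By family the medians were -1.69 for 10 H3 signals, -0.87 for 9 H2A, -0.83 for 5 H2B and -0.82 for 13 H4 signals, over a range from -2.66 to 1.90. The lowest, an H3 probe set listing 10 genes, read 7.48 and 8.22 in the control arrays and 4.97 and 5.41 in the p65 arrays. The highest, the H4 probe set 17016406 listing 14 genes, read 3.75 and 3.38 in the control arrays and 5.81 and 5.12 in the p65 arrays. Probe sets that list the same H4 genes thus lay on both sides of 0. The reason was not tested.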
